A study of Mus musculus with 2 samples.

Results

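Ibsp, the gene of integrin-binding sialoprotein (bone sialoprotein), was examined with 7 further genes of mineralised tissue, Spp1, Dmp1, Mepe, Runx2, Sp7, Alpl and Sparc. The 8 genes were found by name among the non-control probes of both arrays, and they are 8 of 30010 genes measured. They are covered by 13 of 39429 probes. Ibsp was chosen by its measured log2 ratios of cyclopamine over control, so its own values are a description and carry no test. The other 7 genes were selected for what they are known to do, with earlier results of these data known.

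Ureters of wildtype NMRI mice were taken at birth and kept as explants for 18 h. They received either 10 µM cyclopamine, an antagonist of SMO and so of SHH signaling, or the solvent. The sample labels give the solvent as DMF diluted 1 to 1000, while the paper's methods name ethanol for cyclopamine. RNA came from pools of whole ureters, so all cell layers of the organ were mixed, and fewer cells of a type cannot be told apart from less RNA per cell. Each of the 2 arrays set a cyclopamine pool against a control pool of the same sex in the 2 dye channels. Replicate 1 held female pools with cyclopamine in the red channel, and replicate 2 held male pools with the dyes swapped. Sex, dye orientation and replicate therefore cannot be told apart.

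The SIBLING family (small integrin-binding ligand, N-linked glycoproteins) consists of secreted, acidic phosphoproteins whose genes lie side by side. They bind calcium phosphate mineral and, through an RGD sequence, integrins, and are best known from bone and dentin. In bone, RUNX2 and SP7 direct osteoblast differentiation, and Ibsp is a classical marker of the mature, matrix-forming osteoblast. Osteopontin, the product of Spp1, is in addition made by epithelia and is found in urine.

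Replicate 1 was the brighter array, with a 75th percentile of control intensity of 3338 against 628 on replicate 2. Levels are therefore compared within an array, or as a percent of that percentile. Intensities of different probes are not comparable with each other. Transcripts known to respond to SHH signaling were read as a check of the treatment. The test was limma, a moderated linear model fitted across 25975 probes with Benjamini-Hochberg adjusted p-values, and a gene was called at an adjusted p under 0.05. Foxl1, Gli1, Ptch1, Hhip and Foxf1 were called lower, at mean log2 ratios of cyclopamine over control from -2.61 to -0.98. Hhip differed between the arrays (-0.31 and -1.99), and after another background correction (normexp with an offset of 50, then loess) Hhip (adjusted p = 0.16) and Foxf1 (adjusted p = 0.072) were no longer called. A probe counted as well above background in a channel where the scanner software flagged at least 0.5 of its spots so. By this measure markers of urothelium and of smooth muscle, the tissues of the ureter wall, were well above background in every channel (6 of 6 and 5 of 5).

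The sequences behind the Ibsp result are its probes, and the stretch before its start site is shown beside them. The brighter probe lies at chr5:104740413-104740472 (mm9, plus strand) and the second probe at chr5:104739720-104739779. The array annotation gives no exon or UTR for them. The last 30 of the 60 bases of each probe are shown, as a part of the stretch in which Ibsp was measured. The capitals mark AATAAA, the letters of the common polyadenylation signal.
Ibsp probe, brighter: ctggaacaaacttatgctaAATAAAtgact
Ibsp probe, second: gcttttgtttgtagtgggcttcttctttta

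The 250 bases before the Ibsp start (RefSeq, GRCm38.p6, chr5:104299037-104299286, plus strand) are shown because Ibsp is the gene selected for its fall. Matches on either strand of the CCAAT box, of TGACG (the core of the cAMP response element) and of TTTATA (which is the TATA box read on the opposite strand) are in capitals.
Ibsp promoter: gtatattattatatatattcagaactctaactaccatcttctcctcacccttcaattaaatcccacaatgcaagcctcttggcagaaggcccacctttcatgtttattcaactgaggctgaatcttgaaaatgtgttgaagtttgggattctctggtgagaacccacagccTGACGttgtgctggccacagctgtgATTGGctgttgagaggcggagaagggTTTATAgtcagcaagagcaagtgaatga
TTTATA lay 28 to 23 bases before the start, CCAAT 54 to 50 bases before it on the minus strand, and TGACG 79 to 75 bases before it. Of 32851 mouse promoter windows of this length, 12.4% held TTTATA or its reverse complement, 33.8% CCAAT and 17.8% TGACG. GACCACCCA (bound by GLI factors), TGTGGT (bound by RUNX factors) and TAATTA (bound by homeodomain factors) were searched in the same way and are not in this window. They were held by 0.225%, 14.0% and 4.84% of the windows.

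Ibsp was strongly lower with cyclopamine on both arrays. Its brighter probe read 1801 in control and 93.4 with cyclopamine in the female pools, and 289 and 7.93 in the male pools. Both control channels were high and both cyclopamine channels low, and the 4 spots per channel did not overlap on either array (1730 to 1856 against 88.6 to 98.0, and 278 to 294 against 6.89 to 9.19). The log2 ratios were -4.27 and -5.19, with a mean of -4.73 ± 0.65 (SD, n = 2), or a 26.5-fold lower signal. Scaled to the control 75th percentile of its array, Ibsp went from 54.0% to 2.80% in female and from 46.1% to 1.26% in male pools. Its control level was thus much the same on both arrays once the difference in scale was taken out.

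**Figure D1:**
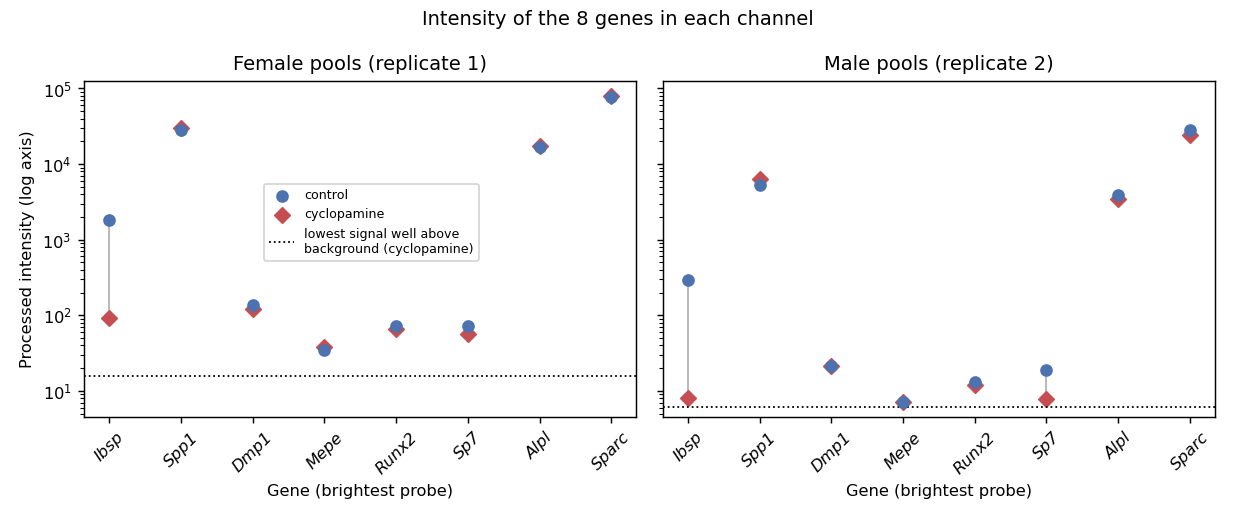
Processed intensity (log axis) of the brightest probe of each of the 8 genes in the control (circles) and cyclopamine channel (diamonds) of the female and male arrays; the dotted line is the lowest signal well above background in the cyclopamine channel, and heights of different genes are not comparable. The channels lie far apart for Ibsp, by 1801 to 93.4 and 289 to 7.93, apart for Sp7 in male pools (18.9 to 7.76), and close together for the others.

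The background set how far this ratio could go in male pools. The cyclopamine signal of 7.93 was 1.29 times the lowest signal well above background there (6.14), so a fold of at most 47.1 could have been measured against that floor. In female pools the residual signal of 93.4 was 5.96 times the floor, and 5.18% of the control level remained. The male ratio is therefore the less certain of the pair. With normexp at an offset of 50 the mean log2 ratio was -3.53, or an 11.6-fold lower signal.

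The second Ibsp probe gave the same direction. It read 1001 in control and 36.4 with cyclopamine in female pools, at a log2 ratio of -4.78. In male pools it read 175 in control, and none of its spots was well above background with cyclopamine (2.65), so the log2 ratio of -6.05 there rests on background.

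Among 18906 genes well above background in all 4 channels, Ibsp had the lowest ratio on each array. The next lowest were Nppb (-2.39), a natriuretic peptide gene, in female pools and Notumos (-3.17), an antisense transcript at Notum, in male pools. Genes whose cyclopamine signal fell to background are not in this ranking. Plppr5 is such a gene, at -3.49 in male pools on a signal not well above background. The number of genes at least 16-fold lower on both arrays was 1, Ibsp itself, and 29 were at least 2-fold lower on both. In the other direction 1 gene was at least 16-fold higher on both arrays and 11 were at least 2-fold higher.

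**Figure D2:**
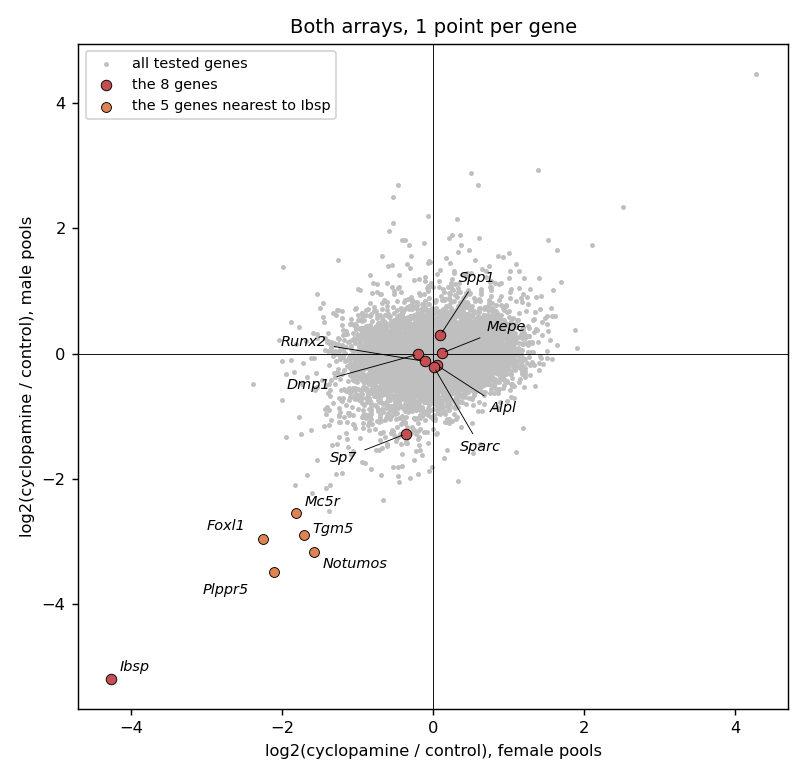
Log2 ratio of cyclopamine over control in female pools (x axis) against male pools (y axis), 1 point per tested gene, with the 8 genes and the 5 genes nearest to Ibsp in colour. Ibsp lies by itself at -4.27 and -5.19, while 6 of the other 7 genes lie inside the cloud around 0 and Sp7 lies at -0.36 and -1.28.

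Of the 8 genes, Ibsp alone passed either criterion used for single genes. It was the only one at least 1.5-fold lower on both arrays with a control intensity over 100 (1 of 8). Dmp1 (21.6), Mepe (7.14), Runx2 (13.0) and Sp7 (18.9) read under 100 in control in male pools and could not pass at any fold. Of 13661 genes that met this intensity limit, 0.630% were as much lower and 0.212% as much higher. Ibsp was also the only one called lower by limma at an adjusted p under 0.05 (1 of 8, against 0.866% of 19397 tested genes). None was called higher (0.438% of tested genes). Nothing is read from these counts, since the rule that chose Ibsp used this contrast. Without Ibsp the 7 genes had a median log2 ratio of -0.10, averaged over both arrays, against -0.01 for all tested genes.

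None of the other SIBLING genes was called in either direction. Spp1 (osteopontin) read 28555 in control and 30420 with cyclopamine in female pools, and 5240 and 6405 in male pools. The cyclopamine channel was slightly the higher on both arrays, and the mean log2 ratio of 0.19 ± 0.14 (SD, n = 2) did not pass the limma test (adjusted p = 0.83). Expressed per array scale, Spp1 was at 856% and 911% of the control 75th percentile in female pools and at 835% and 1020% in male pools.

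Dmp1 (dentin matrix protein, a marker of osteocytes) read 137 and 120 in female pools and 21.6 and 21.4 in male pools, in control and cyclopamine. The log2 ratio averaged -0.10 ± 0.13 (SD, n = 2; limma, adjusted p = 0.92). Mepe (matrix extracellular phosphoglycoprotein, an osteocyte product that inhibits mineralisation) read 35.1 and 38.0 in female pools and 7.14 and 7.18 in male pools. Both genes were dim, and their channels differed little on either array. Mepe averaged 0.06 ± 0.07 on the log2 scale (SD, n = 2; limma, adjusted p = 0.96), and its male signals lay close to the floor of 6.14.

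Dspp, the dentin sialophosphoprotein gene and the last of the family, was added for completeness. It read 41.9 and 50.8 in female pools and 9.35 and 5.55 in male pools, in control and cyclopamine. Not all of its cyclopamine spots were well above background in male pools. The log2 ratios of 0.28 and -0.75 had opposite signs (limma, adjusted p = 0.79). Its second probe was not well above background in any channel. The 4 family members other than Ibsp had a median log2 ratio of -0.02.

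**Figure D3:**
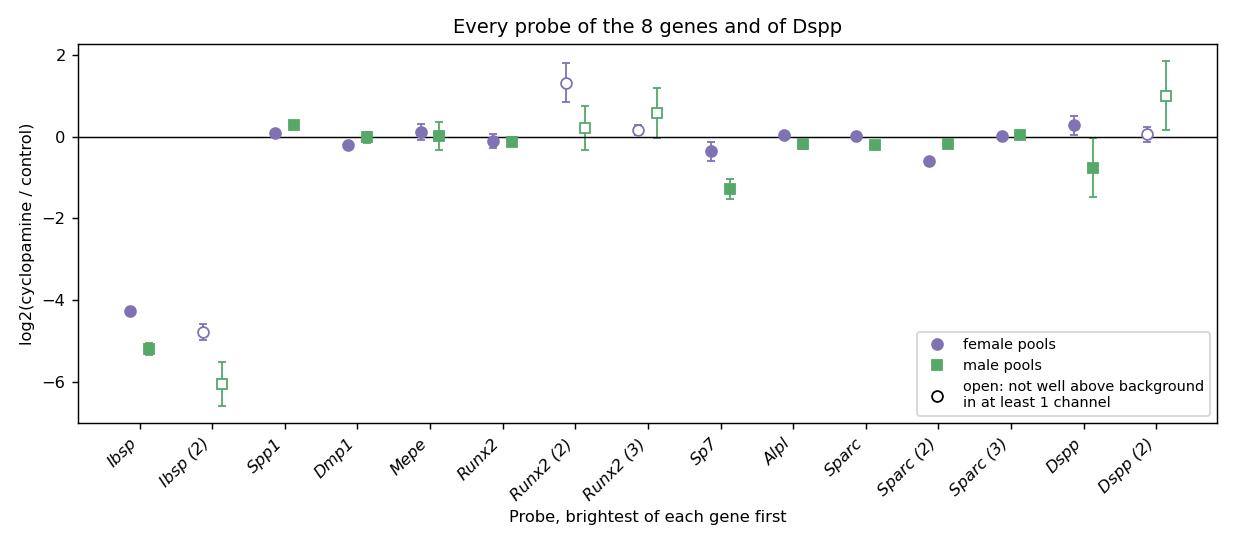
Log2 ratio of cyclopamine over control for every probe of the 8 genes and of Dspp, in female (circles) and male pools (squares); bars are the SD over the up to 4 spots of a probe on 1 array, and open symbols mark probes not well above background in at least 1 channel. Both Ibsp probes lie below -4 on each array, Sp7 lies below 0 on both, and the second Sparc probe lies at -0.59 in female pools.

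Ibsp lies on chromosome 5 (GRCm38.p6, 104299287 to 104311472, plus strand) between Dmp1 and Mepe, in a SIBLING cluster of 270 kb. Mepe starts 26.0 kb after the Ibsp start, Dmp1 starts 102 kb before it, and Spp1 and Pkd2 (polycystin-2, a calcium channel of the renal tubule) start 136 kb and 155 kb after it. None of the other 11 genes listed on this chromosome, up to 607 kb away, was called by limma in either direction. Their mean log2 ratios ran from -0.24 (Dspp) to 0.24 (Hsd17b13, a lipid droplet enzyme). A further listed gene, Abcg2, lies on chromosome 6 in mouse and was not called either (-0.08).

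One neighbour moved in opposite directions on the 2 arrays. Sparcl1 (hevin, a matricellular relative of SPARC) read 56767 and 89520 in female pools and 21828 and 14220 in male pools, in control and cyclopamine. The log2 ratios of 0.66 and -0.62 cancelled to a mean of 0.02. It was the only gene of this list that changed at least 1.5-fold in opposite directions, which 0.371% of tested genes did.

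**Figure D4:**
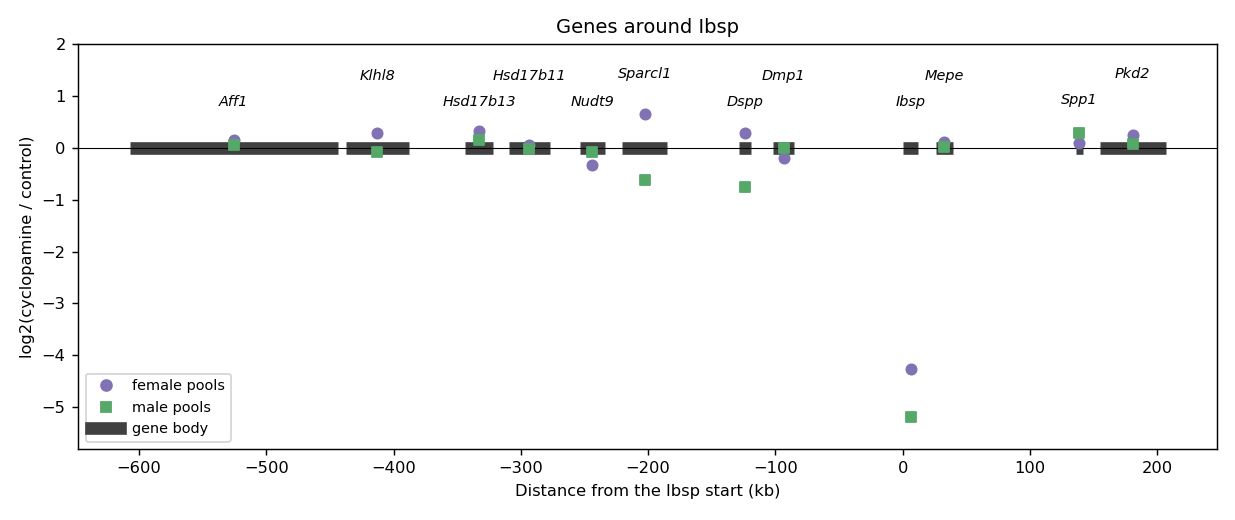
Log2 ratio of cyclopamine over control in female (circles) and male pools (squares) for Ibsp and 11 genes around it, by distance from the Ibsp start in kb; dark bars are the gene bodies. The pair of Ibsp points lies at -4.27 and -5.19, and all other points lie between -0.75 and 0.66.

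The transcription factors of the osteoblast were read next. Sp7 (osterix), a zinc finger factor needed for osteoblast formation, read 71.8 in control and 55.9 with cyclopamine in female pools, and 18.9 and 7.76 in male pools. The cyclopamine channel was the lower on both arrays, clearly so in male pools, where its signal came close to the floor. The log2 ratios were -0.36 and -1.28, with a mean of -0.82 ± 0.65 (SD, n = 2), and the limma test was not passed (adjusted p = 0.066). The call turned on the processing. Sp7 was called once the log ratios were centred on the median (adjusted p = 0.049), and its mean log2 ratio shrank to -0.32 (adjusted p = 0.64) with normexp at an offset of 50. Over all alternatives tested the adjusted p ran from 0.049 to 0.99.

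Runx2, the runt domain factor that starts osteoblast differentiation, was dim. The brightest of its 3 probes, which the array assigns to a non-coding transcript record of the gene, read 71.3 and 65.9 in female pools and 13.0 and 12.0 in male pools. The channels differed little, at log2 ratios of -0.11 and -0.12 (limma, adjusted p = 0.90). The other 2 probes, assigned to the coding transcript, did not reach the limit for testing, with control signals of 5.72 and 13.1 in female pools. The Runx2 value therefore rests on a single probe.

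Of 17 listed osteoblast transcription factors, 16 were tested and none was called in either direction. After Sp7 the lowest among them was Twist2, a bHLH repressor of osteoblast maturation (-0.47). The highest was Runx1, a relative of Runx2 (0.43, adjusted p = 0.57). Dlx5 and Msx2, homeodomain factors that act on bone genes, had mean log2 ratios of -0.02 and -0.11. Dlx6 was not well above background in any channel. The median of the list was -0.07.

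Alpl (tissue-nonspecific alkaline phosphatase, which clears the mineralisation inhibitor pyrophosphate) was bright and even. It read 16895 and 17536 in female pools and 3937 and 3452 in male pools, in control and cyclopamine. The arrays pointed in opposite directions by small amounts, at log2 ratios of 0.05 and -0.19 (limma, adjusted p = 0.95). The channels of Alpl thus stayed within 1.14-fold of each other on both arrays.

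Sparc (osteonectin, a collagen-binding matricellular protein of many connective tissues) read 78355 and 78803 in female pools and 28114 and 24250 in male pools on its brightest probe. The log2 ratio averaged -0.10 ± 0.16 (SD, n = 2; limma, adjusted p = 0.92). The 3 Sparc probes did not give the same picture. The second probe read 19120 and 12682 in female pools and 3580 and 3188 in male pools, at log2 ratios of -0.59 and -0.17 (limma, adjusted p = 0.64). The third probe was dimmer and even, at 0.02 and 0.04. None of the 3 probes was called.

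Genes of bone matrix and of mineralisation were taken from lists around these members. Of 18 bone matrix genes 17 were tested, none was called, and 8 had opposite signs on the 2 arrays. The lowest was Col11a1, a fibrillar collagen of cartilage and bone, at log2 ratios of -0.12 and -1.25 (adjusted p = 0.20). The highest was Tnn (tenascin-W), at 1.18 and -0.27 (adjusted p = 0.59). Bglap, Bglap2 and Bglap3, near-identical genes of osteocalcin type whose probes can pick up each other's transcripts, all lay between -0.34 and -0.31. Omd was not well above background in any channel.

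Of 17 mineralisation and phosphate genes 16 were tested and none was called. Enpp1, which makes pyrophosphate, read 1586 and 2616 in female pools and 326 and 472 in male pools. Its cyclopamine channel was the higher on both arrays, with an average of 0.63 ± 0.13 on the log2 scale (SD, n = 2; limma, adjusted p = 0.23). The lowest gene well above background in all channels was Pth1r, the parathyroid hormone receptor (-0.26, adjusted p = 0.75). Sost, the osteocyte inhibitor sclerostin, was not well above background in any channel.

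Enzymes that process SIBLING proteins and integrins that bind them were read as the partners of Ibsp. None of 9 tested enzymes was called, and their mean log2 ratios ran from -0.35 (Tgm2, a crosslinking transglutaminase) to 0.31 (Mmp3, a matrix metalloproteinase). Of 10 receptor genes 1 was called lower and none higher, against 0.866% and 0.438% of all tested genes. Itga4, the integrin α4 subunit, read 4728 and 3689 in female pools and 1119 and 431 in male pools. The log2 ratio averaged -0.87 ± 0.72 (SD, n = 2; limma, adjusted p = 0.048), with most of the difference in male pools (-0.36 and -1.38). The call was lost without the filter on dim probes (adjusted p = 0.053) and in 3 of the other settings. Itgav encodes the αv subunit, which pairs with β3 in the best known receptor of bone sialoprotein. Itgav read higher with cyclopamine on both arrays but was not called (0.57, limma, adjusted p = 0.36). Itgb3 had a mean log2 ratio of -0.12.

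**Figure D5:**
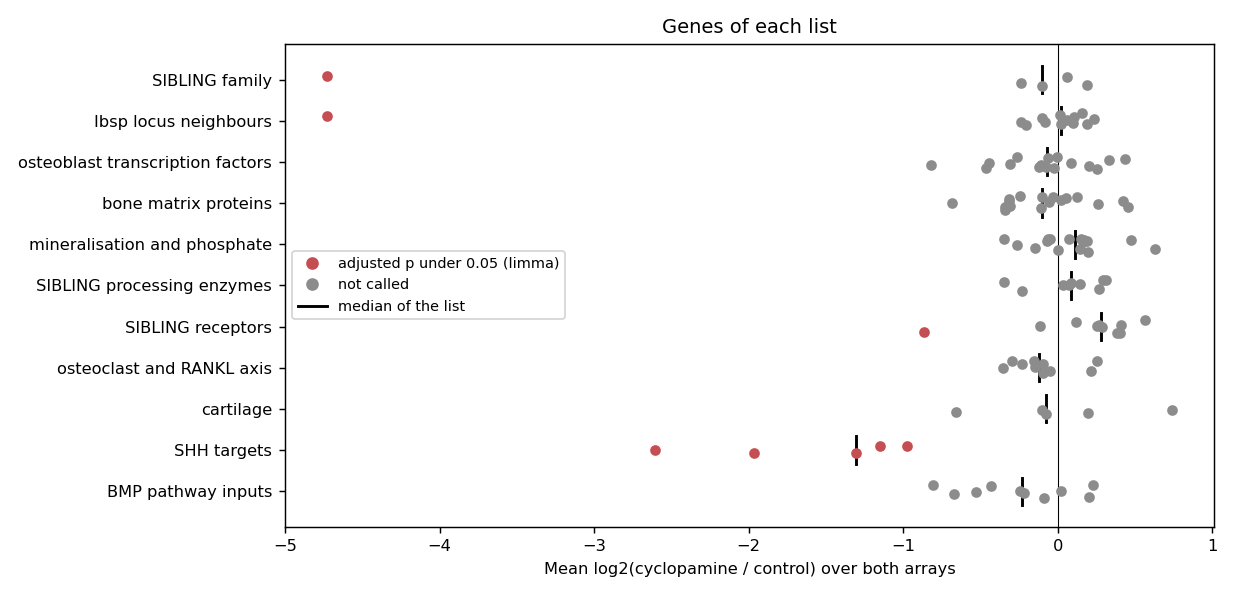
Mean log2 ratio over both arrays of every tested gene in each list, with genes called by limma in red and the median of a list as a black line. Ibsp is the red point at -4.73 in the 2 uppermost lists; among the receptors only Itga4 is called, at -0.87, and the red points of the SHH targets run from -2.61 to -0.98.

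Genes of neighbouring skeletal programmes and of BMP signaling, an inducer of bone formation, gave no further call. None of 10 tested genes of the osteoclast and RANKL list was called, and their extremes were Ctsk, the collagenase cathepsin K (-0.35), and Nfatc1, the main osteoclast transcription factor (0.26). None of 5 tested cartilage genes was called either, and Cnmd, Matn1 and Matn3 were not well above background in any channel. Col2a1, the main collagen of cartilage, had the highest mean log2 ratio of the cartilage genes (0.74, adjusted p = 0.12) and Sox9, its transcriptional activator, the lowest (-0.66, adjusted p = 0.19). Among 10 genes of the BMP list, Bmp4 was at least 1.5-fold lower on both arrays (-0.83 and -0.78) and missed the limit (adjusted p = 0.059). Bmp4 passed with an intensity trend in the variance (adjusted p = 0.020) and after centring on the median (adjusted p = 0.047). The highest of the list was Grem1, a secreted BMP antagonist (0.23).

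Marker lists of cells were read beside the fall of Ibsp. Of 7 markers of osteoblasts and osteocytes 6 were tested and none was called. Their mean log2 ratios ran from -0.82 (Sp7) to 0.08 (Phex, an osteocyte endopeptidase). Lamina propria fibrocytes are the connective tissue cells under the urothelium. All 4 markers listed for these cells were at least 1.5-fold lower on both arrays (0.990% of tested genes were). The paper also places Ahr, Axin2, Bmp4, Foxf1, Itga4 and Ptch1 in this layer. Bmp4, Foxf1 and Ptch1 fell at least 1.5-fold on both arrays too, but Itga4 did not (-0.36 in female pools). Ahr and Axin2 were not in the lists read. The paper describes Axin2 as apparently slightly increased with cyclopamine by in situ hybridization, and it gives no cyclopamine fold change for Ahr. Not all genes placed in this layer therefore fell. Car3 and Avpr1a became candidates in the study through their falls on these arrays. Aldh1a2 was its fibrocyte marker from earlier work. THY1 protein had been tried as a marker, but the paper saw no staining in the ureter and deemed it unsuitable. Thy1 RNA was placed in the layer as one of the array candidates. The list itself was chosen with results of these data known, so nothing is read from the count of 4. Car3 (-0.70 and -1.26) and Avpr1a (-0.66 and -1.26) were called by limma, and Thy1 (adjusted p = 0.058) and Aldh1a2 (adjusted p = 0.22) were not. With normexp at an offset of 50 Car3 (adjusted p = 0.067) and Avpr1a (adjusted p = 0.062) lost the call, while Thy1 gained it in 3 settings. The summed intensity of the 4 probes, in which the brightest weigh most, went from 53714 to 32252 in female pools and from 8414 to 4527 in male pools.

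Of 4 adipocyte markers, 3 were tested and 1 was called lower, against 0.866% of all tested genes. Cfd, the serum protease adipsin, had a mean log2 ratio of -0.96 (limma, adjusted p = 0.012; 0.056 with normexp at an offset of 50), Adipoq was at -0.75 (adjusted p = 0.097), and Lep was not well above background in any channel. The summed intensity of these markers went from 6738 to 3662 in female pools and from 308 to 169 in male pools. The 4 listed fibrocyte markers had a median log2 ratio of -0.88 and the 3 tested adipocyte markers of -0.83, against -4.73 for Ibsp. The part of these cells in the Ibsp result was not tested. No tested marker of urothelium, smooth muscle, macrophages, osteoclasts, chondrocytes, endothelium or kidney tubule was called in either direction. Mean log2 ratios ran from -0.02 (Upk1a) to 0.47 (Trp63) in urothelium, from -0.55 (Cnn1) to -0.02 (Myh11) in smooth muscle and from -0.43 (Aif1) to 0.20 (Adgre1) in macrophages. They ran from -0.35 (Ctsk) to -0.09 (Acp5) in osteoclasts and from 0.19 (Cdh5) to 0.30 (Pecam1) in endothelium. With normexp at an offset of 50 Upk1a and Myh11 lay on the other side of 0. Of the kidney tubule markers Lrp2 was at 0.75, and Slc12a1, Slc34a1 and Umod were not well above background in any channel.

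The genes whose pair of log2 ratios lay nearest to that of Ibsp were taken by Euclidean distance over the 2 arrays, from 19190 genes well above background in control on both. They were Plppr5, Foxl1, Notumos, Tgm5 and Mc5r. The 3 that were well above background in all channels, Foxl1, Notumos and Mc5r, lay up to 3.61 log2 units away. The places of Plppr5 and Tgm5 rest on cyclopamine signals not well above background and have no firm order. Foxl1, a forkhead factor gene, read 1768 and 371 in female pools and 273 and 35.0 in male pools, at log2 ratios of -2.25 and -2.96. Notumos was at -1.58 and -3.17, and the probe listed under Mc5r, a melanocortin receptor gene, at -1.82 and -2.54. Plppr5, which encodes a neuronal membrane protein, was at -2.10 in female pools, and its male cyclopamine signal was not well above background. Tgm5, a transglutaminase gene of the epidermis, gave cyclopamine signals not well above background in both sexes, and no fold is given for it.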

How the data were processed

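Two-colour Agilent arrays were read for 2 pairs of pools of newborn mouse ureters. The authors' deposited scanner files hold intensity values per spot and channel. Per the file headers these were made with Agilent Feature Extraction 12.2.0.7 (the processing notes name 10.7.3.1), with background subtraction, detrending, surrogates for dim spots and dye balance within the array. The log10 ratio in the deposited files has red over green without a turn for the dye swap, and only served to find the direction of the series table. That table, also deposited by the authors, holds a score for each probe, a signed linear fold change already turned to cyclopamine over control. One source name reads IWP-2, against cyclopamine in all other labels, which were followed.

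Control spots and outlier spots (2.89% and 3.15%) were left out, no spot was saturated, and up to 4 spots per probe were averaged on the log2 scale. Precision is limited by there being 2 arrays. Gene names came from the probe accession through RefSeq (28328 probes) or else from the array. The brightest probe over the 4 channels stood for a gene. limma 3.58.1 in R 4.3.3 was fitted to the log2 ratios of probes in which at least 0.5 of the spots were well above background in 1 group on both arrays, with +1 and -1 for the dyes. With 1 residual degree of freedom, most of each variance came from the prior shared by all probes. The p-values therefore rest mainly on a spread between the 2 arrays pooled over all probes, and little on a gene's own spread. They do not measure the spread between animals. The fold and intensity limits of 1.5 and 100 follow the study. Alternatives were other background corrections, the series table, centring, filters, probe summaries, an intensity trend, the channels as separate samples and each array left out.

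The members, lists and tests were chosen with earlier results of these data known. Named were all members with every probe, Dspp, and in each list the genes called or at least 1.5-fold changed the same way on both arrays, those with the lowest and highest mean log2 ratio, and those not well above background in any channel; added to these were the 5 genes nearest to Ibsp. Twist2, Dlx5, Msx2, the Bglap genes, Itgb3, Abcg2, Sparcl1 and Nppb fell outside this rule and were named after their values were seen. No amino acid sequence is given. One further SHH target was read and is not reported here.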

Additional observations from a re-analysis of the deposited data

Results flagged for a closer look

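Some named genes had ratios at least 1.2-fold from even in opposite directions in the pools of each sex. Each sex was measured on 1 array, the dyes differed as well, and none of these differences was tested. Dspp was at a log2 ratio of 0.28 in female and -0.75 in male pools, a difference of 1.03. Sparcl1, its neighbour on chromosome 5, was at 0.66 and -0.62, a difference of 1.28. Tnn was at 1.18 and -0.27, a difference of 1.44. Phex was at 0.55 and -0.40, a difference of 0.95, and Myh11 at 0.35 and -0.40, a difference of 0.75. None of the 8 genes themselves met this limit.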

How the results depend on the processing

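Members below the intensity limit of the 1.5-fold filter could not pass it at any fold. Ibsp was the only 1 of the 8 genes past this filter in all 11 alternatives run for that count. Its mean log2 ratio ran from -5.19 to -3.53 over its 11 alternatives, the smallest sizes being -3.53 and -4.01 with normexp at offsets of 50 and 10. Of 88 values for the 8 genes 84 kept their direction and call or stayed within the spread. Part of this count was fixed in advance. With 1 array left out the ratio always stays within the spread of the 2 arrays. A mean over all tested probes leaves a gene with a single tested probe unchanged. Settings that alter only the test cannot move the ratio, which is all that was scored for Ibsp. Sp7 was called after centring, and Mepe changed sign with the series table values (-0.069). Alpl (0.054) and Sparc (0.0082) changed sign with replicate 2 left out, since their 2 arrays pointed in opposite directions, and were scored as within the spread. For Ibsp only the size of the ratio was scored, not its call. No probe, and so not Ibsp either, was called lower on the series table values or with the 4 channels as separate samples. Among the markers Upk1a changed sign with normexp at offsets of 50 and 10 (0.028 and 0.0080), and Myh11 at an offset of 50 (0.0085).

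Counts over the whole array moved more. Against 200 probes called lower and 118 higher, limma called 42 and 12 with normexp at an offset of 50, 125 and 55 at an offset of 10, and 216 higher without the filter on dim probes. It called 0 and 0 on the series table values, where 818 and 1051 probes had an unadjusted p under 0.05. Taking the 4 channels as separate samples with no replicate block, it called 0 lower (287 at an unadjusted p under 0.05) and 1 higher. No call of a lower probe thus held in that setting, which dropped the pairing within an array and also normalised the brightness between the arrays. Against 86 genes lower and 29 higher by the fold filter, the counts were 55 lower with a control intensity over 200, 20 and 3 at 2-fold, and 19 higher on the series table values. With 1 array left out they ran from 229 to 1743 lower and from 80 to 1362 higher. Dim signals limit Mepe, Runx2, Sp7 and Dspp, and the cyclopamine level of Ibsp in male pools.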
